A study of Rattus norvegicus with 29 samples.

Results

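The genes described here are the rat transporters of sugars, amino acids and small peptides, together with the related carriers that share their families. They were taken as every gene whose symbol on the array platform belongs to the solute carrier families Slc1, Slc2, Slc3, Slc5, Slc6, Slc7, Slc15, Slc16, Slc36 or Slc38, and where a gene had several rows the brightest of them on average was used. The rule gave 78 genes of the 14557 named genes measured. Slc7a6os also matched the rule by its symbol, although it is the gene on the opposite strand to Slc7a6 and no transporter. It was kept and counted among the 78. The levels decided only which row stood for a gene with several rows, and all 78 genes were tested without a filter on low values.

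Duodenal RNA of 29 rats was measured, with 1 array per rat. The rats were Long-Evans, male and wild type, and their age was 8 to 10 weeks. RYGB (Roux-en-Y gastric bypass, 6 rats), which leads food past the duodenum, was set against its own sham operation (5 rats). VSG (vertical sleeve gastrectomy, 6 rats), in which about 80% of the stomach was removed, was set against sham-operated rats with paired feeding (6 rats) and against sham-operated rats (6 rats). All groups were given a liquid diet on the day before surgery. The labels describe the operation in detail only for VSG and its sham, and the RYGB series had no pair-fed sham, so that RYGB and any change in food intake with it cannot be told apart. The sources used here do not give the time between surgery and tissue collection. Expression was measured as log2 values from RMA, a method that corrects, normalizes and summarises the probes of an array, and a difference of 1 is a doubling of signal. The signal depends on the probes of each gene, so levels are compared between groups within a gene and not between genes.

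The duodenal epithelium takes up the products of digestion in a division of labour between its luminal face, the brush border, and its basolateral face towards the blood. Slc5a1 carries glucose and galactose in with sodium, Slc2a5 carries fructose, and Slc2a2 passes all of these sugars on at the basolateral face. Small peptides enter through Slc15a1, and free amino acids enter and leave through a set of partly overlapping carriers, several of which work as pairs of a heavy chain (Slc3a1 or Slc3a2) and a light chain of the Slc7 family.

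The 78 genes spread over 10 families, and 28 of them had a mean above 5 over the 29 arrays, while 27 had a mean under 3, near the array medians of 2.8 to 2.97. The member with the highest signal was Slc5a1 in the Slc5 family (mean 10.09, 5 of 11 members above 5), Slc15a1 in the Slc15 family (9.69, 1 of 4), Slc6a8, the creatine transporter, in the Slc6 family (9.36, 5 of 11), and Slc3a1 in the Slc3 family (9.33, both members above 5). In the Slc2 family it was Slc2a2 (9.32, 4 of 10), in the Slc7 family Slc7a7 (9.25, 5 of 15), and in the Slc16 family Slc16a3, a lactate exporter (8.61, 3 of 10). The Slc38 family was led by Slc38a2 (7.9, 2 of 7) and the Slc36 family by Slc36a1 (7.12, 1 of 4). No member of the Slc1 family had a mean above 5, and its highest was Slc1a4, a carrier of small neutral amino acids (3.97, 4 members). The main neutral amino acid carrier of the brush border, Slc6a19, and Slc1a5, Slc2a7, Slc2a3 and Slc38a1 were not analysed here. The pooled SD between rats of a group had a median of 0.26 over the 78 genes (0.14 to 0.56).

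The transcripts of absorptive cells were high on every array. The mean of 8 measured enterocyte markers of 11, among them Vil1, Fabp2 and Rbp2, was 11.26 ± 0.09 after RYGB and 11.23 ± 0.08 in the RYGB sham, 11.29 ± 0.03 after VSG, 11.23 ± 0.08 in the pair-fed VSG sham and 11.28 ± 0.04 in the VSG sham (SD). Transcripts of the exocrine pancreas, which lies against the duodenum, differed widely between rats. The mean of 15 measured genes of 22 ran from 2.96 to 9.0 after RYGB, from 2.66 to 5.73 in the RYGB sham, from 4.61 to 8.44 after VSG, from 2.51 to 9.26 in the pair-fed VSG sham and from 2.70 to 8.21 in the VSG sham. It averaged 6.96 ± 2.33 after RYGB and 3.40 ± 1.31 in the RYGB sham (SD), a difference of 3.56 (exact permutation test, two-sided, p = 0.0195, adjusted p = 0.078 over 4 comparisons). All 15 genes were above 0 in that comparison, with a median log2 fold change of 3.69 and an unadjusted p under 0.05 in limma, and 0 of them passed the adjusted threshold. Of the measured genes of 8 other cell lists (endocrine pancreas, Brunner gland, smooth muscle, enteric neurons and glia, lymphoid cells, macrophages, endothelium and liver), the neuropeptide gene Vip alone was called after RYGB, at -1.22 ± 0.24 (adjusted p = 0.00343 in limma). In bulk tissue of this kind, fewer cells of a type and less RNA per cell cannot be told apart.

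RYGB changed 4 of the 78 genes against its sham: the fructose carrier Slc2a5 and the basolateral sugar carrier Slc2a2 fell, and the taurine carrier Slc6a6 and the cystine and cationic amino acid carrier Slc7a9 rose. Calls were made with limma where the p, adjusted by Benjamini-Hochberg over the 14557 genes, was under 0.05. The 4 genes are 5.13% of the 78, against 2.64% of all genes called in this comparison (1.26% higher and 1.38% lower). Among genes with a mean above 5, 4 of 28 members were called, which is 14.3%, against 5.43% of 5769 genes. An unadjusted p under 0.05 was found for 13 members, 16.7% of the 78 against 14.1% of all genes. The median log2 fold change over the 78 genes was -0.01 and that over all genes was 0. Of these 4 genes, Slc6a6, Slc7a9 and Slc2a2 had no overlap between the RYGB and the sham arrays. Over all members, every RYGB array lay above every sham array for 4 genes (5.13%, against 1.39% of all genes) and below for 2 (2.56%, against 1.39% of all genes).

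**Figure D1:**
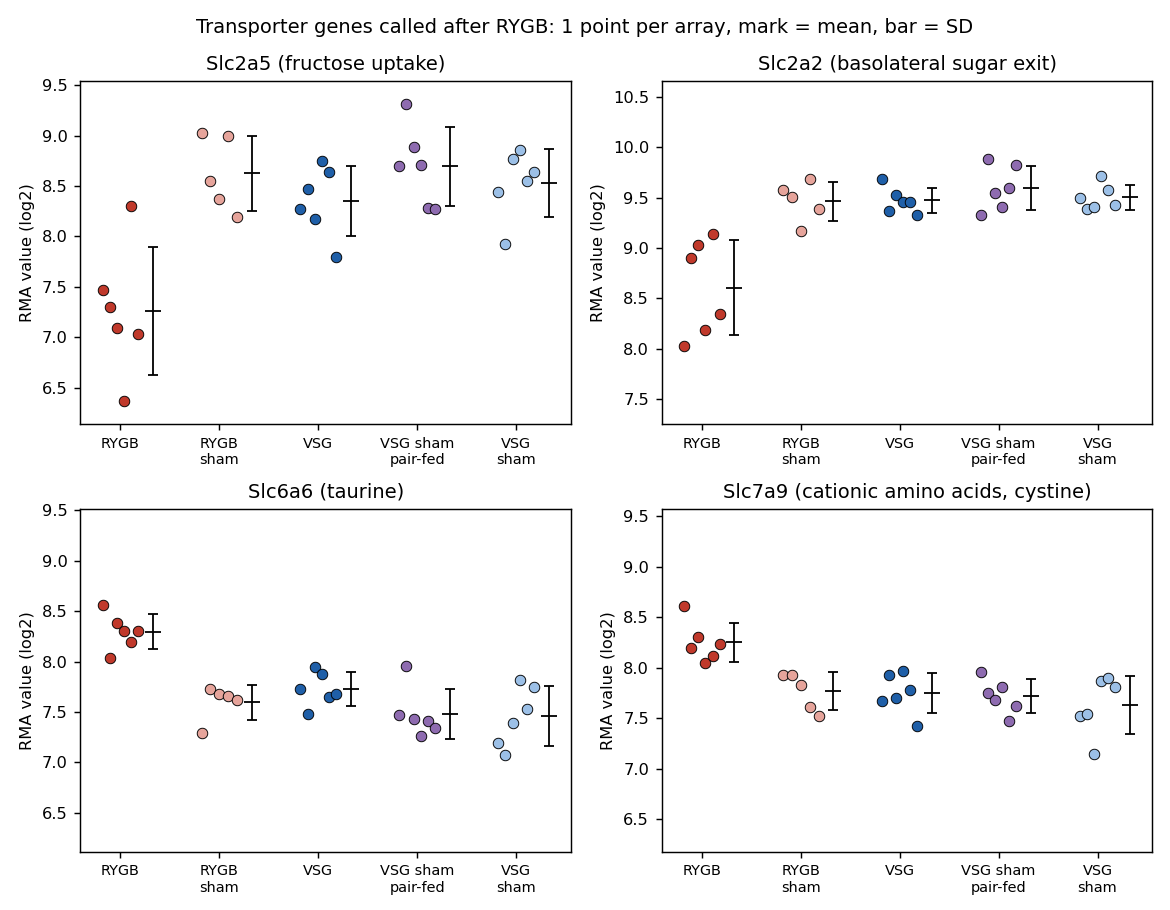
RMA values (log2) of Slc2a5, Slc2a2, Slc6a6 and Slc7a9 in the 5 groups, 1 point per array, with the group mean and SD beside the points. Slc2a5 and Slc2a2 sit lower and Slc6a6 and Slc7a9 higher after RYGB, and the VSG, pair-fed VSG sham and VSG sham points overlap those of the RYGB sham.

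Slc2a5, the fructose carrier of the brush border, had the largest fall. It ranged from 6.37 to 8.30 with a median of 7.20 after RYGB, against 9.02, 8.55, 8.37, 9.0 and 8.19 in the 5 RYGB sham rats. Of the 6 RYGB rats, 5 lay below every sham rat, and replicate 5, at 8.30, lay inside the sham range. The log2 fold change was -1.36 ± 0.25 (SE, 95% interval -1.86 to -0.86, adjusted p = 0.00114), which is 2.57-fold lower. After VSG, Slc2a5 ranged from 7.80 to 8.75 with a median of 8.37, against 8.27 to 9.31 (median 8.71) in the pair-fed VSG sham and 7.92 to 8.86 (median 8.6) in the VSG sham, and the groups overlapped. The log2 fold change after VSG was -0.18 ± 0.23 against the sham (interval -0.66 to 0.29) and -0.35 ± 0.23 against the pair-fed sham (interval -0.82 to 0.13; -0.22 without pair-fed replicate 2), and neither was called.

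Slc2a2, the facilitated carrier through which glucose, galactose and fructose leave the cell towards the blood, fell less. It ranged from 8.03 to 9.14 with a median of 8.63 after RYGB, against 9.57, 9.51, 9.17, 9.68 and 9.39 in the RYGB sham. The groups did not overlap, although the highest RYGB array (9.14) lay close under the lowest sham array (9.17). The RYGB rats were also more spread (SD 0.47) than those of the RYGB sham (SD 0.19). The log2 fold change was -0.85 ± 0.16 (interval -1.17 to -0.54, adjusted p = 0.00133), which is 1.81-fold lower. After VSG, Slc2a2 averaged 9.47 ± 0.13, against 9.60 ± 0.22 in the pair-fed VSG sham and 9.5 ± 0.12 in the VSG sham (SD, n = 6 each), with a log2 fold change of -0.03 ± 0.15 against the sham (interval -0.33 to 0.28).

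The sodium-coupled glucose carrier of the brush border was not called. Slc5a1 ranged from 9.82 to 10.22 with a median of 10.07 after RYGB, against 10.32, 10.12, 9.90, 10.20 and 10.02 in the RYGB sham, so that the arrays overlapped throughout. Its log2 fold change was -0.04 ± 0.11 (interval -0.27 to 0.18) after RYGB and 0.03 ± 0.11 (interval -0.18 to 0.25) after VSG against its sham. The interval after RYGB leaves out a fall of the size measured for Slc2a2. Of the 5 members in the group of enterocyte sugar carriers, 2 fell and 3 were not called. The called share was 40%, against 2.64% of all genes and 5.43% of genes with a mean above 5, which all 5 members had. The median log2 fold change was -0.37 beside 0 over all genes. Such groups of carriers were drawn up with earlier results of these data known. The other members not called were Slc5a4, a relative of Slc5a1, at -0.37 ± 0.24 (interval -0.86 to 0.13), and Slc5a9, a sodium-coupled hexose carrier, at 0.36 ± 0.14 (interval 0.07 to 0.64, adjusted p = 0.197).

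Slc6a6, which carries taurine with sodium and chloride, had the larger rise after RYGB of the 2 genes called higher. It ranged from 8.04 to 8.56 with a median of 8.30 after RYGB, against 7.29, 7.73, 7.68, 7.66 and 7.62 in the RYGB sham, and the lowest RYGB array stood above the highest sham array. The log2 fold change was 0.70 ± 0.14 (interval 0.43 to 0.98, adjusted p = 0.00221), which is 1.63-fold higher. After VSG the values ran from 7.48 to 7.95 with a median of 7.70, against 7.26 to 7.96 (median 7.42) in the pair-fed VSG sham and 7.07 to 7.82 (median 7.46) in the VSG sham. That difference was 0.27 ± 0.13 against the sham (unadjusted p = 0.0442, adjusted p = 0.541 by limma) and was not called.

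Slc7a9, the light chain that takes up cystine and cationic amino acids in exchange for neutral ones, ranged from 8.05 to 8.61 with a median of 8.21 after RYGB, against 7.93, 7.93, 7.83, 7.61 and 7.52 in the RYGB sham. The arrays did not overlap. The log2 fold change was 0.49 ± 0.13 (interval 0.22 to 0.76, adjusted p = 0.0383), 1.40-fold higher, and the call is near the threshold. With 1 array left out, it was lost without RYGB replicate 1, 2, 3 or 6, where the log2 fold change was 0.42, 0.50, 0.48 and 0.49 and the adjusted p in limma 0.111, 0.0563, 0.0701 and 0.0615. It was also lost when replicate 3, 4 or 5 of the sham was left out, with log2 fold changes of 0.51, 0.45 and 0.43 at adjusted p-values of 0.0552, 0.0996 and 0.114. Its heavy chain Slc3a1 was not called. Slc3a1 ranged from 9.13 to 9.55 (median 9.36) after RYGB, against 9.54, 9.30, 9.41, 9.37 and 9.13 in the RYGB sham, and its log2 fold change was 0.01 ± 0.11 (interval -0.22 to 0.23).

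The 4 called genes are shown with the 250 bases before their transcription start in the GRCr8 assembly, from RefSeq, so that the letters near each start can be set beside its change. Capitals mark ACGTG or GCGTG on either strand, the core letters of the sites bound by hypoxia-inducible factors, looked for because the series is about iron absorption, in which such a factor is known to act.
Slc2a5, chr5:165865929-165866178 (+): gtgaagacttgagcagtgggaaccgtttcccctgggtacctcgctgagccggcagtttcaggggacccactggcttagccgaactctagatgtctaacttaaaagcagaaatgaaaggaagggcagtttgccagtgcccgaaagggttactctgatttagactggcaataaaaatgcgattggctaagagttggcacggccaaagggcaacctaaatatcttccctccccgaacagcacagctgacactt
Slc2a2, chr2:113540120-113540369 (+): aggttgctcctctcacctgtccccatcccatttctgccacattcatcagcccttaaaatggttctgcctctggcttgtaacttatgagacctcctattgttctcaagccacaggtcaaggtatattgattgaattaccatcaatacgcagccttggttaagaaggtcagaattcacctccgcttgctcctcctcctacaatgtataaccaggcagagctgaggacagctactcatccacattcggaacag
Slc6a6, chr4:125752252-125752501 (+): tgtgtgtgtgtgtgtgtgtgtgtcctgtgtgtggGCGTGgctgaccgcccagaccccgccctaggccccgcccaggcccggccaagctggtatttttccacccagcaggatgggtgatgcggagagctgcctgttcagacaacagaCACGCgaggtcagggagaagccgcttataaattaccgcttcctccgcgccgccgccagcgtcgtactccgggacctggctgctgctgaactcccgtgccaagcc
Slc7a9, chr1:97246632-97246881 (+): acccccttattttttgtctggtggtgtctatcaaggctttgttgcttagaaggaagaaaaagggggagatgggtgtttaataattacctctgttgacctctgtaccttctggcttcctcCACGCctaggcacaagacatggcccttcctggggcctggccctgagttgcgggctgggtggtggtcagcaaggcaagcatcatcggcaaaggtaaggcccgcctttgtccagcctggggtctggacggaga
The genes that fell, Slc2a5 and Slc2a2, had 0 matches in these windows, and the genes that rose, Slc6a6 and Slc7a9, had 2 and 1. Such short letters are common: they stood in 37.9% of the 27457 promoter windows of the assembly and in 26 of the 61 members with a window (42.6%). The letters CACGTG, one form of the site of the sugar-responsive factor Mlxipl and of many others, were found in 0 of the 4 windows, in 5.79% of all windows and in 8 of the 61 members (13.1%). TATAA was found on either strand in Slc2a2 (1 match) and Slc6a6 (2 matches), and in 24.1% of all windows. The 2 matches in Slc6a6 overlap in a single stretch, TTATAA, read on both strands. A match is a description of the letters and no evidence of binding.

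Among the carriers of amino acids at the brush border, 2 of 9 rose after RYGB, none fell, and the median log2 fold change was 0.03. The called share was 22.2%, against 2.64% of all genes and 5.43% of genes with a mean above 5. The largest difference in the group belonged to Slc6a20a, which carries proline and other imino acids and was not called. It ranged from 5.88 to 6.92 (median 6.34) after RYGB, against 5.54, 5.77, 5.07, 6.00 and 5.30 in the RYGB sham, and only 1 RYGB array lay under the highest sham array. The difference was 0.87 ± 0.26 (interval 0.34 to 1.41, adjusted p = 0.072). Slc36a1, a proton-coupled carrier of small neutral amino acids, differed by -0.30 ± 0.19 (interval -0.70 to 0.09), Slc6a14, a carrier of neutral and cationic amino acids, by 0.03 ± 0.13 (interval -0.23 to 0.28), and Slc1a1, the glutamate and aspartate carrier, by -0.06 ± 0.24 (interval -0.55 to 0.42).

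Peptide uptake and the exit of amino acids to the blood gave no call after RYGB. Slc15a1, the proton-coupled peptide carrier, ranged from 9.43 to 10.13 (median 9.82) after RYGB, against 9.97, 9.83, 9.33, 9.92 and 9.75 in the RYGB sham, and its log2 fold change was 0.02 ± 0.15 (interval -0.29 to 0.32). None of the 4 peptide carriers and none of the 6 basolateral carriers was called by limma, and 0 of either group had an unadjusted p under 0.05. Of the exit carriers, the shared heavy chain Slc3a2 differed by 0.00 ± 0.11 (interval -0.22 to 0.22), its light chain for cationic amino acids Slc7a7 by 0.19 ± 0.12 (interval -0.05 to 0.44), its light chain for neutral amino acids Slc7a8 by 0.12 ± 0.10 (interval -0.09 to 0.34), and Slc16a10, which passes aromatic amino acids, by 0.28 ± 0.18 (interval -0.09 to 0.65).

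**Figure D2:**
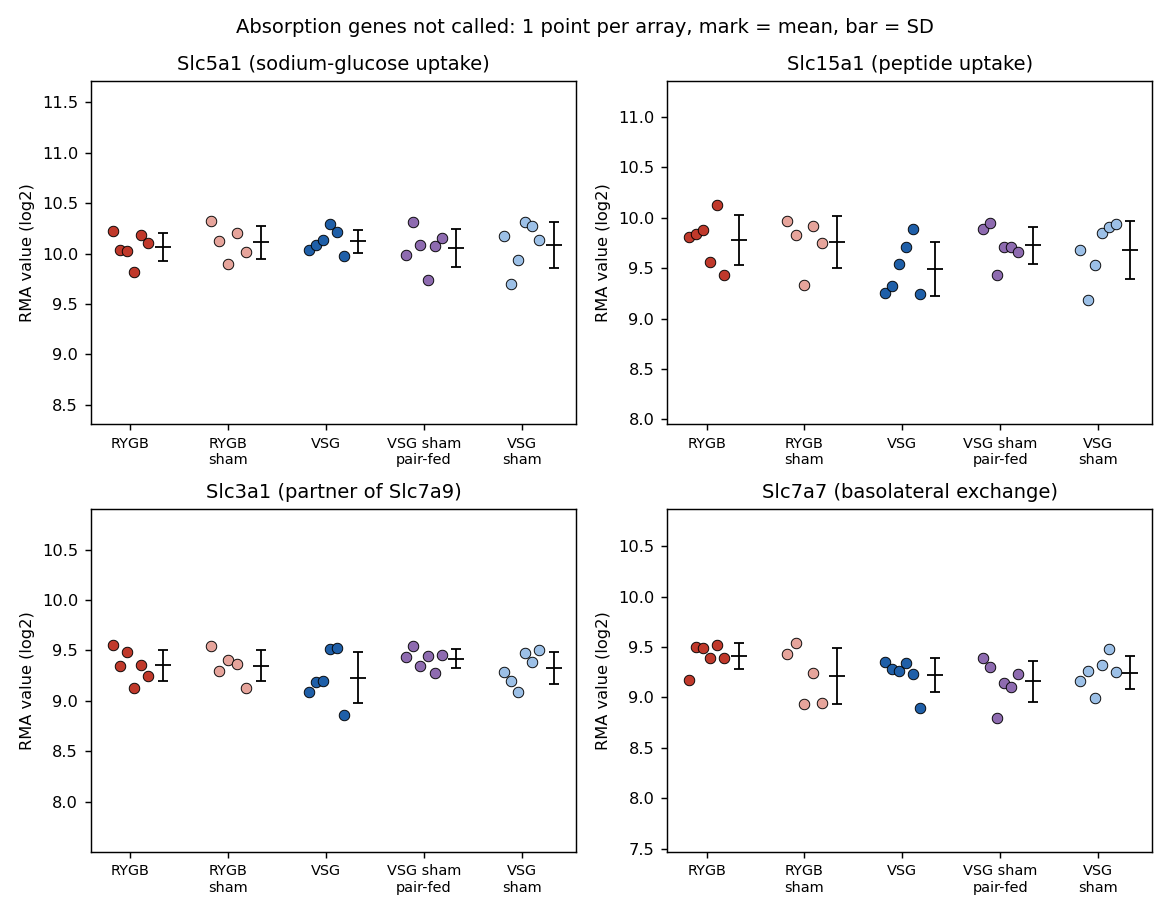
RMA values (log2) of Slc5a1, Slc15a1, Slc3a1 and Slc7a7 in the 5 groups, 1 point per array, with the group mean and SD beside the points. Each axis is wide enough to hold the largest difference found among the called genes, and the arrays of all 5 groups overlap.

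The monocarboxylate carriers, several of which move lactate and short-chain acids, held no called gene after RYGB in limma. An unadjusted p under 0.05 was found for 2 of 10 (20%, against 14.1% of all genes). Only Slc16a1 and Slc16a3 of this group had a mean above 5. Of the 10, 8 had a log2 fold change below 0, beside 7183 of all 14557 genes, and the median was -0.28 beside 0 over all genes. Slc16a1, the widespread lactate and butyrate carrier, ranged from 6.15 to 6.64 after RYGB, against 6.86, 6.60, 6.53, 6.84 and 6.69 in the RYGB sham, a difference of -0.30 ± 0.12 (interval -0.54 to -0.06, adjusted p = 0.202). Slc16a3 differed by 0.08 ± 0.16 (interval -0.24 to 0.40). Slc16a5, a low-signal member, differed by -0.73 ± 0.28 (interval -1.31 to -0.15, adjusted p = 0.196). Without sham replicate 5, at 2.52 the lowest sham array of Slc16a5, it was called (adjusted p = 0.0464), and without sham replicate 1 the difference was -0.47.

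No carrier with other duties was called after RYGB. Slc6a4, the serotonin transporter, ranged from 8.63 to 8.88 after RYGB, against 8.41, 8.42, 8.58, 8.21 and 8.21 in the RYGB sham. The lowest RYGB array stood above the highest sham array, yet the difference of 0.38 ± 0.12 (interval 0.14 to 0.62) had an adjusted p of 0.0769 and was not called. With the genes of lowest mean left out it was called (adjusted p = 0.0479), and so it was with a trended and robust variance prior (adjusted p = 0.0386). Slc6a8 differed by -0.13 ± 0.12, Slc5a11, a sodium-coupled inositol carrier, by 0.00 ± 0.14, Slc2a9, a urate carrier of the glucose carrier family, by 0.37 ± 0.19 (0.18 without RYGB sham replicate 3), and Slc2a1, the general glucose carrier of most cells, by 0.15 ± 0.13. None of the 11 carriers that supply amino acids to growing or stressed cells was called. Slc38a2 differed by -0.05 ± 0.10, and Slc1a4 by 0.20 ± 0.18. None of the 7 lysosomal and intracellular carriers was called, with Slc38a9, the amino acid sensor of the lysosome, at -0.04 ± 0.12.

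**Figure D3:**
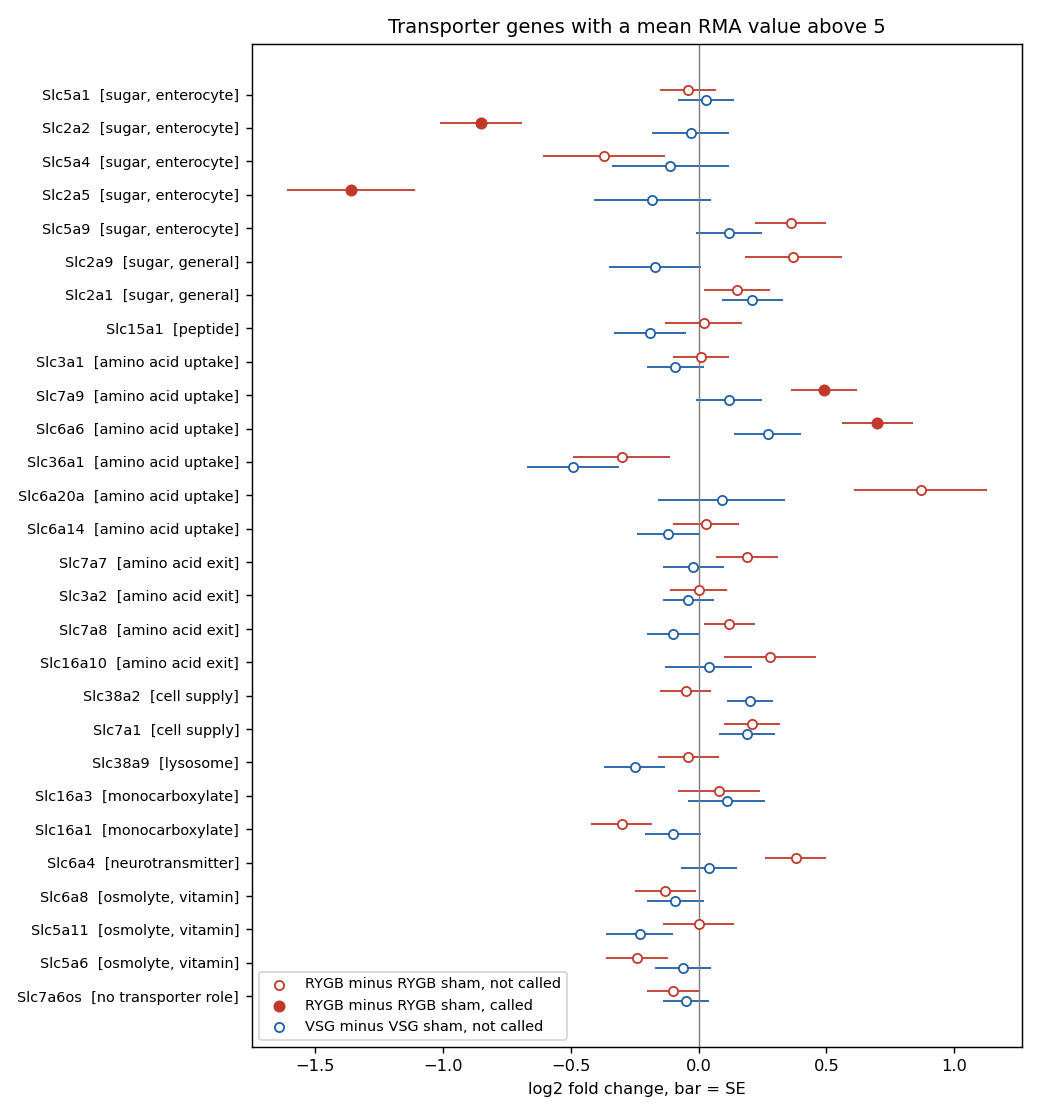
Log2 fold change and SE of the 28 genes with a mean above 5, ordered by role, for RYGB minus RYGB sham (red) and VSG minus VSG sham (blue), with filled points for called genes. Filled points stand only at Slc2a2 (-0.85), Slc2a5 (-1.36), Slc7a9 (0.49) and Slc6a6 (0.70), all for RYGB.

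The enzymes that release sugars and amino acids at the brush border were looked at beside the carriers. Their list also held Cltrn, which is no hydrolase, and Cltrn, Naalad2 and Folh1 lay under the array medians on every array. Of 11 measured genes of 19 listed, 3 rose after RYGB, none fell, and 8 were not called, with a median log2 fold change of 0.03. The called share was 27.3%, against 2.64% of all genes and 5.43% of genes with a mean above 5. The 3 were all peptidases, as were most of the measured genes of that list. Ace, which removes dipeptides, averaged 1.02 ± 0.21 higher on the log2 scale (adjusted p = 0.0037), Xpnpep2, which cuts in front of proline, 0.59 ± 0.14 (adjusted p = 0.016), and Anpep, aminopeptidase N, which is also one of the enterocyte markers, 0.35 ± 0.08 (adjusted p = 0.0165). Lct, lactase, and Treh, trehalase, were the only disaccharidases of the list that were measured, and neither was called after RYGB. Lct was not called after VSG either, although it ran from 7.41 to 8.49 there and from 8.92 to 9.46 in the VSG sham. Such arrays wholly below the sham were found for 0.343% of all genes. In the pair-fed VSG sham Lct ran from 7.80 to 9.66, overlapping the VSG arrays. Of 7 measured genes of 15 listed for the sodium gradient, scaffolds and the handling of fructose, 2 fell after RYGB. That is 28.6%, against 2.64% of all genes called and 5.43% of genes with a mean above 5. The list also held Txnip and Cdx2, which lie outside its headings, and it was drawn up with earlier results of these data known. Txnip, whose transcription is raised by glucose, fell by 0.67 ± 0.10 on the log2 scale (adjusted p = 0.000151 in limma). Tkfc, which phosphorylates the glyceraldehyde made from fructose, fell by 0.37 ± 0.08 (adjusted p = 0.00887 in limma). Tkfc ranged from 8.75 to 8.98 after RYGB, against 9.36, 9.27, 9.07, 9.38 and 9.29 in the RYGB sham, with no overlap. Of 11 measured genes of the amino acid stress response, limma called 0 after RYGB, with 1 at an unadjusted p under 0.05. The calls of Anpep and Xpnpep2 were lost with single arrays left out, and those of Anpep, Xpnpep2 and Tkfc once the fit held the pancreas mean (0.31, 0.63 and -0.34, adjusted p = 0.128, 0.05 and 0.0743). With only the RYGB groups fitted, Anpep and Tkfc were not called (adjusted p = 0.098 and 0.0875 in limma). Nor were they without the arrays with a pancreas mean above 8 (adjusted p = 0.121 and 0.0885 in limma).

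Since the pancreas mean averaged more after RYGB than in its sham, the called carriers were set beside it. Slc2a5 was 7.09, 6.37 and 7.03 in the RYGB replicates 3, 4 and 6, whose pancreas means were 8.70, 9.0 and 8.31, and 7.47, 7.30 and 8.30 in replicates 1, 2 and 5, whose pancreas means were 7.27, 5.54 and 2.96. In the other groups, 4 arrays had a pancreas mean above 8. Slc2a5 was 7.80 in VSG replicate 6 (pancreas mean 8.44), the lowest VSG value and below every sham array, 8.70 and 8.27 in the pair-fed VSG sham replicates 1 and 6 (9.03 and 9.26), and 8.44 in VSG sham replicate 1 (8.21). Within groups, over the 29 arrays, the correlation of the 2 measures was -0.30 for Slc2a5, -0.18 for Slc2a2, -0.10 for Slc6a6 and 0.09 for Slc7a9. The part of the pancreas transcripts in the low Slc2a5 values was not tested. With that mean added to the fit as a covariate, the log2 fold changes were -1.14 for Slc2a5 (adjusted p = 0.0248), -0.78 for Slc2a2 (adjusted p = 0.021), 0.74 for Slc6a6 (adjusted p = 0.00959) and 0.46 for Slc7a9 (adjusted p = 0.167). Without the 7 arrays with a pancreas mean above 8, 3 of them from RYGB and 0 from its sham, Slc2a2 was called at -0.77 (adjusted p = 0.033), while Slc2a5 (-0.93, adjusted p = 0.0783), Slc6a6 (0.67, adjusted p = 0.0698) and Slc7a9 (0.55, adjusted p = 0.108) were not.

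Slc38a5, a carrier of glutamine and other neutral amino acids named here after its values were seen, had its highest values on arrays with a pancreas mean above 8. It was a low-signal member, with a mean of 1.89 over the 29 arrays, under the array medians. It ranged from 1.65 to 2.54 after RYGB, against 1.52, 1.52, 1.60, 1.36 and 1.56 in the RYGB sham, without overlap and with a difference of 0.46 ± 0.21 (adjusted p = 0.321). Its 5 highest values, 3.01 and 2.53 in the pair-fed VSG sham, 2.54 and 2.39 after RYGB and 2.47 in the VSG sham, belonged to arrays with pancreas means of 9.03, 9.26, 9.0, 8.70 and 8.21. The other arrays with a pancreas mean above 8, VSG replicate 6 (8.44) and RYGB replicate 6 (8.31), had lower Slc38a5 values, 1.81 and 1.72. With that mean in the fit, the RYGB difference of Slc38a5 was 0.01 ± 0.18.

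**Figure D4:**
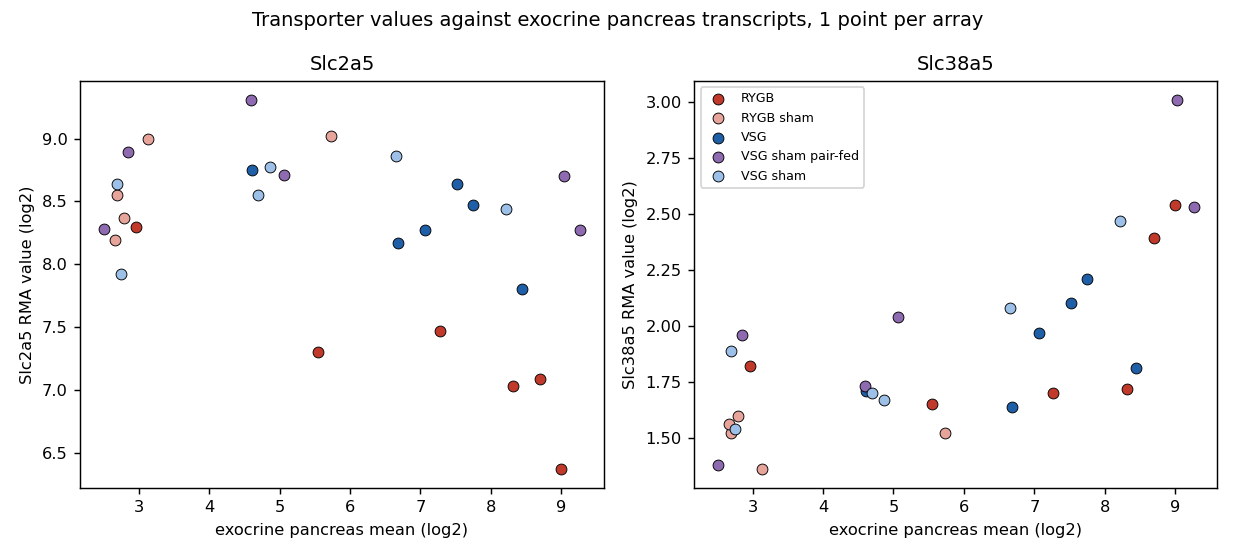
Slc2a5 (left) and Slc38a5 (right) RMA values (log2) against the mean of 15 exocrine pancreas genes (log2), 1 point per array, coloured by group. The RYGB points of Slc2a5 lie under the other groups at pancreas means above 5, while the 5 highest values of Slc38a5 stand at pancreas means above 8, where VSG replicate 6 (1.81) and RYGB replicate 6 (1.72) are lower.

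VSG was compared with its sham and with the pair-fed sham, which ate matched amounts. The 2 comparisons share the VSG arrays, so their values are given side by side without an overlap. Limma called 0 of the 78 carriers against the sham, where 0.179% of all genes were called (0.151% higher, 0.0275% lower), and 0 against the pair-fed sham, where 0.508% were (0.261% higher, 0.247% lower). An unadjusted p under 0.05 was found for 7 carriers against the sham (8.97%, against 8.99% of all genes) and for 11 against the pair-fed sham (14.1%, against 11.1%). No carrier had VSG arrays wholly above those of the sham, where 0.501% of all genes did, or wholly below, where 0.343% did. The same count of 0 held against the pair-fed sham, beside 0.495% and 0.646% of all genes.

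The smallest p of any carrier in these comparisons belonged to Slc36a1. It was 6.26, 6.74, 7.10, 7.11, 6.69 and 6.71 after VSG, against 7.91, 7.43, 7.52, 6.88, 7.11 and 7.74 in the pair-fed VSG sham and 6.98, 6.97, 7.14, 7.78, 7.02 and 7.65 in the VSG sham. The VSG values overlapped both shams, at their low end. The difference was -0.66 ± 0.18 against the pair-fed sham (interval -1.04 to -0.29, adjusted p = 0.103) and -0.49 ± 0.18 against the sham (interval -0.86 to -0.11, adjusted p = 0.413), and neither was called. Without the arrays with a pancreas mean above 8, the difference of Slc36a1 from the pair-fed sham was -0.46 ± 0.21.

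Carriers that supply amino acids to growing or stressed cells had mostly positive differences after VSG, none of them called. Of these carriers, only Slc7a1 and Slc38a2 had a mean above 5. Of the 11, 10 were above 0 against the pair-fed sham, with a median log2 fold change of 0.20 beside -0.02 over all genes. An unadjusted p under 0.05 in limma was found for 6 (54.5%, against 11.1% of all genes). Against the sham, 10 of 11 were above 0 with a median of 0.07 beside -0.01 over all genes. There, 3 had an unadjusted p under 0.05 in limma (27.3%, against 8.99% of all genes). The pair-fed sham itself was below the sham for 7 of the 11, with a median of -0.09 beside 0.01 over all genes. Slc7a5, Slc7a11 and Slc7a1 were named after their values were seen, and are given against the pair-fed sham. Slc7a5, the large neutral amino acid carrier, differed by 0.48 ± 0.21 (adjusted p = 0.38 in limma). Slc7a11, the cystine and glutamate exchanger, a low-signal member (mean 2.56), differed by 0.45 ± 0.16 (adjusted p = 0.267 in limma). Slc7a1, a cationic amino acid carrier, differed by 0.33 ± 0.11 (adjusted p = 0.2 in limma). Against the same pair-fed sham, Slc1a4 differed by 0.37 ± 0.17 (adjusted p = 0.409 in limma) and Slc38a2 by 0.20 ± 0.09 (adjusted p = 0.44 in limma). Of the 11 measured genes of the amino acid stress response, which is known to raise several of these carriers, limma called 0 in that comparison, 7 were above 0 and 4 below, and 6 had an unadjusted p under 0.05. Those 6 went both ways: Atf4 (0.24), Trib3 (0.54), Cebpb (0.28) and Atf3 (0.79) were above 0, and Ddit3 (-0.37) and Cth (-0.35) below.

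No absorptive carrier was called after VSG. Against its sham, Slc15a1 differed by -0.19 ± 0.14 (interval -0.49 to 0.10), Slc3a1 by -0.09 ± 0.11 (interval -0.31 to 0.12), Slc7a9 by 0.12 ± 0.13 (interval -0.14 to 0.37) and Slc7a7 by -0.02 ± 0.12 (interval -0.25 to 0.22). Against the pair-fed sham, Slc2a1 differed by 0.36 ± 0.12 (interval 0.11 to 0.61, adjusted p = 0.215) and Slc38a9 by -0.38 ± 0.12 (interval -0.62 to -0.14, adjusted p = 0.17), neither of them called. Paired feeding itself gave no call. Limma called 0 of the 78 carriers between the pair-fed sham and the sham, where 0% of all genes were called, and 0 carriers had an unadjusted p under 0.05, against 5.57% of all genes. Slc2a5 differed by 0.16 ± 0.23 (interval -0.32 to 0.64) and Slc2a2 by 0.09 ± 0.15 (interval -0.21 to 0.40) between the pair-fed sham and the sham.

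**Figure D5:**
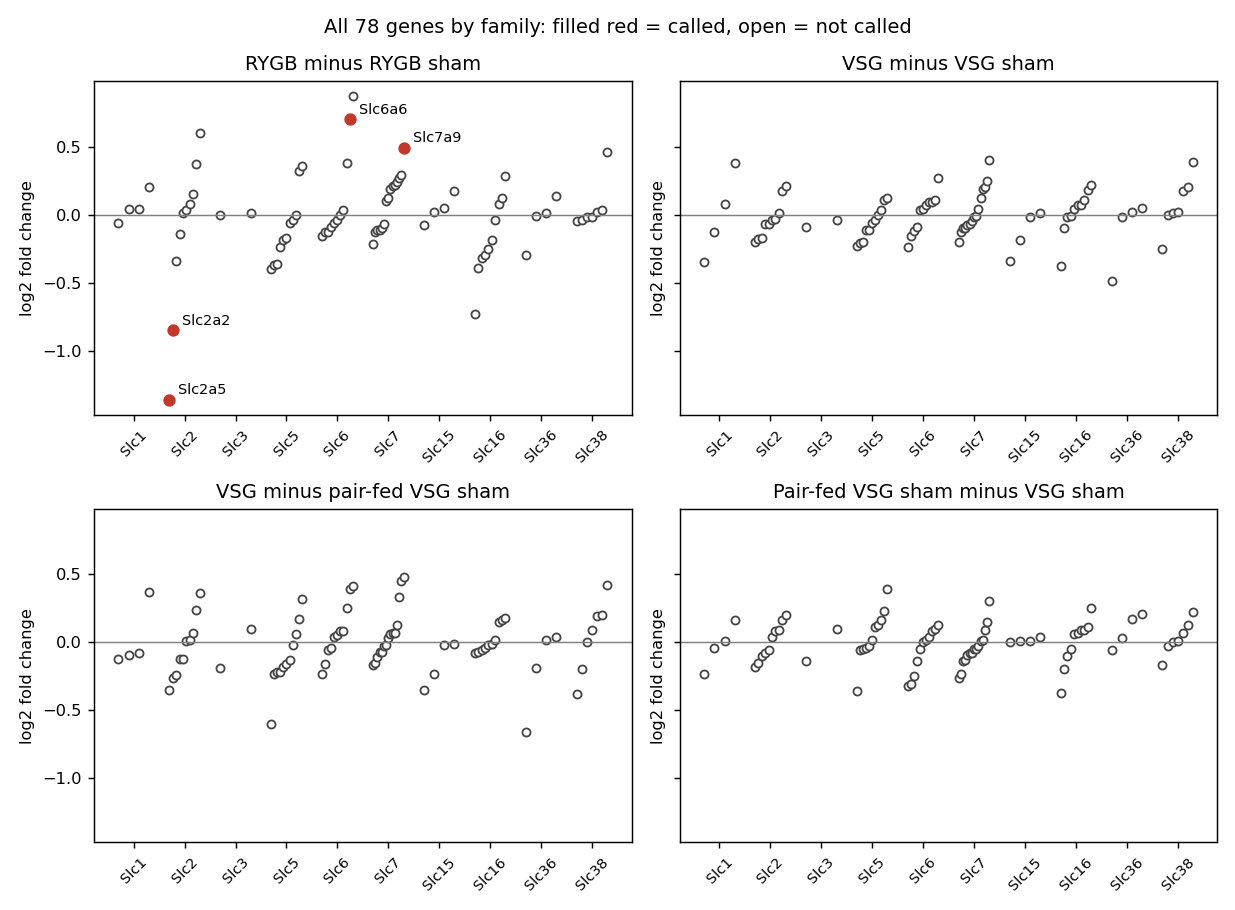
Log2 fold changes of all 78 genes by family in 4 comparisons, with 1 point per gene, points spread sideways within a family by size, and filled points for called genes. Slc2a5 at -1.36 is the lowest point of the RYGB panel, and the other 3 panels hold no filled point.

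Whether the carriers responded differently to the surgeries was tested as the RYGB effect minus the VSG effect, each against its own sham. Limma called 0 of the 78 carriers, where 0.392% of all genes were called (0.0893% higher, 0.302% lower), and 8 carriers (10.3%, against 8.58% of all genes) had an unadjusted p under 0.05. The differences were -1.18 ± 0.34 for Slc2a5 (interval -1.87 to -0.49, adjusted p = 0.15), -0.83 ± 0.22 for Slc2a2 (interval -1.27 to -0.39, adjusted p = 0.0892), 0.43 ± 0.19 for Slc6a6 (interval 0.05 to 0.81, adjusted p = 0.502) and 0.37 ± 0.18 for Slc7a9 (interval 0.00 to 0.74, adjusted p = 0.579). The carriers' responses are not shown to differ between the surgeries by this test. Without RYGB replicate 5, the differences were called in limma for Slc2a5 (-1.39, adjusted p = 0.0246) and Slc2a2 (-0.93, adjusted p = 0.0252). That array had a Slc2a5 value in the sham range, the highest Slc2a2 value after RYGB (9.14) and the lowest RYGB pancreas mean (2.96). Slc2a2 was also called without RYGB replicate 3 (-0.91, adjusted p = 0.0432) and, with all arrays, under a trended and robust variance prior (-0.83, adjusted p = 0.0492). The sham groups of the surgeries differed in 0 of the 78 carriers by limma, VSG sham against RYGB sham, where 0% of all genes were called. There, 2 carriers (2.56%, against 5.2% of all genes), Slc5a3 and Slc5a10, had an unadjusted p under 0.05. Slc5a10, a low-signal sodium-coupled sugar carrier, differed by -0.34 ± 0.14 between the VSG sham and the RYGB sham (-0.20 without VSG sham replicate 5) and, after RYGB, differed by -0.40 ± 0.14 (adjusted p = 0.131) without overlap of the arrays.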

How the data were processed

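The authors deposited log2 expression values for each probe set of each array. Per the submitters' processing notes, these come from RMA, run in Expression Console 1.3.0.187 of Affymetrix. The sources used here do not give the chip definition or the genome build. Of 36685 rows, 14824 had 1 gene symbol in the platform annotation, 829 had several and 21032 were not named. Symbols were updated through Entrez numbers with the GRCr8 gene table, and each gene kept its row with the highest mean (14557 genes; Slc7a14 had 2 rows). Samples of a group are biological replicates per the labels, and no pair of arrays held the same values (highest correlation 0.977). The number of arrays limits the precision.

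With limma 3.58.1 in R 4.3.3 (lmFit, eBayes), checked on simulated data, 5 group means were fitted over the 29 arrays together. Two-sided p-values were adjusted for all genes of each comparison (Benjamini-Hochberg). Alternatives changed the genes tested, the row of a gene, the prior, the normalization, array weights, the groups fitted, the pancreas transcripts, the replicate block and the arrays included.

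Named with values were called carriers, the 3 with the highest mean above 5 in each family, a fixed list of absorptive carriers, the carrier with the smallest p of a family without calls, and called members of the pathway lists. Slc5a9, Slc6a14, Slc5a3, Vip, Lct, the stress response genes with values and the carriers said to be so were named after their values were seen. The members, lists and rules were chosen with earlier results of these data known.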

Additional observations from a re-analysis of the deposited data

Results flagged for a closer look

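A value was picked out where 1 array of a group lay far from the others by Dixon's test at its 5% level, which chance gives in about 1 in 20 groups; 12 of 145 groups of values were so marked, over 27 named carriers and both marker means. In the RYGB sham, replicate 3 was low in Slc2a9 (5.71, the others 6.64 to 6.78), Slc36a1 (6.7, the others 7.27 to 7.48), Slc38a2 (7.65, the others 7.81 to 7.86) and the enterocyte marker mean (11.08, the others 11.25 to 11.29). Replicate 1 of that group was low in Slc6a6 (7.29, the others 7.62 to 7.73) and high in the exocrine pancreas mean (5.73, the others 2.66 to 3.13). After VSG, replicate 6 was low in Slc3a2 (8.78, the others 9.06 to 9.19) and in its partner Slc7a7 (8.89, the others 9.23 to 9.35).

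In the pair-fed VSG sham, Slc6a6 was high in replicate 2 (7.96, the others 7.26 to 7.47) and the enterocyte marker mean was low in replicate 3 (11.07, the others 11.23 to 11.29). In the VSG sham, Slc16a3 was low in replicate 3 (8.46, the others 8.6 to 8.67) and Slc5a10 in replicate 5 (1.63, the others 2.32 to 2.66). None of the called differences after RYGB ended without RYGB sham replicate 1, and without RYGB sham replicate 3 the call of Slc7a9 ended (0.51, adjusted p = 0.0552).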

How the results depend on the processing

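Of 198 values of called genes under the alternatives, 0 changed sign. Of genes not called, 137 values did, none of them above 0.24 in size. The 2 carriers called higher after RYGB became 1 with arrays centred on their median, with only the RYGB groups fitted and with the pancreas covariate, and 0 without the arrays with a pancreas mean above 8; with single arrays left out the count was 1 to 2. The 2 called lower became 1 with only the RYGB groups fitted and without the arrays with a pancreas mean above 8. The difference of the surgeries' effects, with 0 carriers called lower, gave 1 with a trended and robust prior (Slc2a2, adjusted p = 0.0492) and 0 to 2 with single arrays left out. With only the RYGB groups fitted, Slc2a2 was -0.85 with an adjusted p of 0.0561 and Slc7a9 0.49 with 0.0845; centring gave Slc7a9 an adjusted p of 0.0666. Over all genes, the 385 calls after RYGB became 192 with only its groups fitted, 212 with the pancreas covariate and 184 without the high-pancreas arrays. Replicate numbers showed no steady pairing of the samples. Arrays of the same number correlated at -0.09 to 0.07 between RYGB and its sham. The widest range, -0.22 to 0.23, was between the pair-fed VSG sham and the VSG sham. With the replicate block, 2 carriers were called higher, Slc6a6 and Slc6a20a (0.91, adjusted p = 0.0427), and 2 lower, while Slc7a9 was not (0.5, adjusted p = 0.0536). The causes of these changes were not tested. Arrays give no read depth, and 50 carriers with a mean of 5 or less carry a smaller signal, in which changes can be understated.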
